A study of Mus musculus with 6 samples.

Results

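The 10 genes Nfix, Pvt1, Ptchd4, Rras2, Zfx, Cnot6l, Dcbld2, Hipk3, Elf2 and Camsap1 are hosts of abundant circular RNA (circRNA) in the mouse line GC-2 spd(ts), out of 3901 host symbols in the circRNA table. Each was taken with every row of that table that names it alone, 37 of 9158 rows, and with its row in the mRNA table. The hosts were picked by name with their event counts known, so their abundance and their circular-to-linear levels are descriptions. They were not the 10 highest. By back-splice events of both libraries together, 6 of them held ranks 1 to 5 and 7, and Elf2, Dcbld2, Hipk3 and Camsap1 held ranks 14, 25, 33 and 39. The hosts next in abundance that are not among the 10 were Arhgap10 with 258 events, Foxn2 with 167, Gm21992 with 158, Txndc11 with 150 and Crim1 with 149. All 10 passed the filter of at least 10 events and at least 10 linear reads in both libraries together, which left 687 hosts.

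GC-2 spd(ts) is an immortalised line made from mouse spermatocytes. After 12 h without serum, the cells spent 48 h in complete medium with 10% serum and either 120 µM bisphenol A (BPA), a plastic monomer delivered in dimethyl sulfoxide, or 0.1% dimethyl sulfoxide as control. Aliquots of the same RNA gave a circRNA library (ribosomal RNA removed, linear RNA digested with RNase R), an mRNA library with strand-specific preparation and a small RNA library, not used here. Each group held 1 library of each kind, so differences between conditions were neither checked against replicates nor tested. For the same reason, intervals cover counting error only. PCR copies were not separated by molecular identifiers, so the intervals may be too narrow even for that.

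The circRNA libraries held 12909 events in control and 17586 with BPA, of which the 10 hosts made up 11% and 9.31%. A count of 0 allows up to 0.0232% and 0.0171% of the events. The mRNA libraries held 32312872 and 33071378 reads. Of 8 germ cell markers 2 were in the mRNA table, Sycp3 with 6 and 0 reads and Ddx4 with 0 and 9. All 4 Sertoli cell markers were present, with 2366 reads summed in control and 2379 with BPA. Most of these were from Gata4, with 1959 and 1795 reads. Sox9 had 389 and 525, and Amh (10 and 33) and Wt1 (8 and 26) had few. Of 4 Leydig cell markers 1 was present, Star with 69 and 90 reads. Of 3 macrophage markers 2 were present, Cd68 with 147 and 236 reads and Ptprc with 3 and 0. All 4 peritubular and fibroblast markers were present, with 142611 reads summed in control and 80929 with BPA. The part of this difference in the values of the 10 hosts was not tested, and fewer cells of a type cannot be told apart from less RNA per cell in such bulk samples.

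A circRNA forms when a downstream splice donor is joined to an upstream splice acceptor of the same transcript, which closes 1 or more exons into a ring without ends. The ring and the linear transcript draw on the same precursor RNA, so a host can make both, and rings resist exonucleases that digest linear RNA. Rings often start at the second exon of a gene and lie between long introns. Among the hosts here, the Hipk3 exon 2 ring and the Pvt1 exon 2 ring are widely described circRNAs.

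The junction is the stretch of sequence that tells a ring from its linear transcript, and it is what a back-splice event counts. The junction of the leading circRNA of each host (its row with most events) is given below on GRCm38, 5′ to 3′ on the transcribed strand, with the 15 bases that end the ring in lower case and the 15 bases that start it in capitals. Further junctions of Zfx, Cnot6l, Pvt1 and Ptchd4 are added because they show which end of the ring varied.
Nfix, exon 2, chr8:84771784-84772315, minus strand: ttgtccacactccggGATGAGTTCCACCCG
Pvt1, exon 2, chr15:62107148-62107465, plus strand: agctccctctaaaatGTCTGATTTTCTTAA
Zfx, exons 2 to 4, chrX:94098283-94114263, minus strand: accttatgatctcttGTGCGTATAACTGTG
Rras2, exons 2 to 4, chr7:114058540-114060419, minus strand: gaccatcagagacagTCCTATTTTGTGACG
Cnot6l, exons 2 to 4, chr5:96128943-96134132, minus strand: ctctaggtttaacagACTAATAGGGATGCC
Ptchd4, exon 3, chr17:42377160-42377640, plus strand: ctttcttcgccatggGATGGGAGGAACAGT
Elf2, exons 2 to 4, chr3:51308050-51326035, minus strand: agaattcagaaacagTAGTTCCAGAGAACC
Dcbld2, exons 2 to 3, chr16:58424561-58433463, plus strand: ttatagataaagaagGTGATGGATGTGGAC
Hipk3, exon 2, chr2:104470749-104471847, minus strand: atctcgctactacagGTATGGCCTCACAAG
Camsap1, exons 2 to 3, chr2:25965663-25966948, minus strand: ttctggatcaataagACAACATCCCTGAGG
Zfx second, exons 3 to 4, chrX:94098283-94102380, minus strand: accttatgatctcttGTGTTCTGGCTGATG
Cnot6l second, exons 2 to 5, chr5:96106216-96134132, minus strand: ttgacaatcttgcagACTAATAGGGATGCC
Pvt1 second, exons 2 to 3, chr15:62107148-62149352, plus strand: tggtaaccagcacagGTCTGATTTTCTTAA
Ptchd4 second, intron 2 to exon 3, chr17:42371898-42377640, plus strand: ctttcttcgccatggAGATGTGGACTGGCT
All of these junctions lay between AG before the first base of the ring and GT after its last base, the letters of annotated splice sites. The Cnot6l and Pvt1 pairs shared the capitals and differed in the lower-case bases, the Zfx and Ptchd4 pairs the reverse. The second Ptchd4 junction starts inside an intron, at a position that is not an annotated exon end.

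Rings of these hosts were built mostly from the second exon onward. The leading circRNA began at exon 2 in 9 of the 10 hosts, with Ptchd4 at exon 3, against 56.2% of the leading circRNAs of the 74 other hosts with at least 50 events. It was a single exon in 4 hosts (Nfix, Pvt1, Ptchd4 and Hipk3), against 8.22% of the others. Exon content, coding or not, was taken as all annotated exons between the ring ends. Which inner exons the rings of several exons kept was not examined. So taken, exon content ran from 300 bases in Rras2 to 1099 in Hipk3, with a median of 453 against 370 in the others. The Hipk3 ring starts 2 bases before the annotated start codon, which shows as ATG in its capitals, and the Cnot6l ring 10 bases before it. The rings of Zfx and Elf2 hold 97 and 246 bases of 5′ untranslated region, so 4 of 10 leading rings span a start codon, against 26.0% of the others. Those of Nfix (532 bases), Ptchd4 (481), Camsap1 (425), Dcbld2 (366) and Rras2 (300) are all coding sequence, and that of Pvt1 (318 bases) is noncoding. Of the leading circRNAs, 6 carried a circBase identifier in the deposited table and those of Ptchd4, Zfx, Cnot6l and Camsap1 did not, a share close to the 63.5% of the others.

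The introns beside the rings were long. The upstream intron had a median of 18966.5 bases, from 1038 in Nfix to 68946 in Pvt1, and the downstream intron a median of 23375, from 8120 in Rras2 to 124641 in Ptchd4. In the 74 other hosts the medians were 18844 and 13382. Pairing of inverted repeats across the flanks is a known route to a ring. A blastn search of the 1000 bases before against the 1000 bases after each ring found an inverted match of at least 50 bases in 2 of the 10, Zfx with 105 bases at 74.3% identity and Elf2 with 75 at 80%, against 13.2% of 446 circRNAs with annotated ends. Quaking, an RNA-binding protein that favours some rings, binds ACTAAC. These letters lay within 500 bases of the ring on the transcribed strand in 1 of 10 (Nfix, downstream) against 12.3% of the 446, and on the opposite strand in 3 of 10 against 28.5%.

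Most hosts made 1 ring and little else. The leading junction held at least 80% of the events of both libraries in 8 of 10 hosts, against 35.1% of the 74 others, and the median share was 91.6% against 71.2%. Nfix was at 99.0%, Hipk3 and Rras2 at 98.9%, Ptchd4 at 93.5%, Dcbld2 at 92.0%, Pvt1 at 91.3%, Cnot6l at 91.2% and Elf2 at 83.8%. Camsap1 was at 78.8%. Zfx was the exception, with 57.1% in its leading and 42.6% in its second junction. The events behind these shares are also those by which the hosts were known when picked, so the shares are a description.

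Where a host had further junctions, many began at the exon where the leading ring began. Of 25 minor junctions with annotated ends, 13 used the acceptor of the leading ring and 1, in Zfx, used its donor, against 22.4% and 12.7% of 495 minor junctions of the 74 others. All annotated minor junctions of Elf2, Dcbld2, Rras2 and Hipk3 shared the leading acceptor, as did 3 of 8 in Pvt1 and 2 of 3 in Camsap1. In Nfix none of the 3 did. Its minor junctions began at exon 3, beyond a 43816-base intron, and held 6, 2 and 2 events. Minor junctions rest on few events. Of the 37 rows, 8 had a single event and 24 were seen in both libraries, and only 17 reached 10 events.

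**Figure D1:**
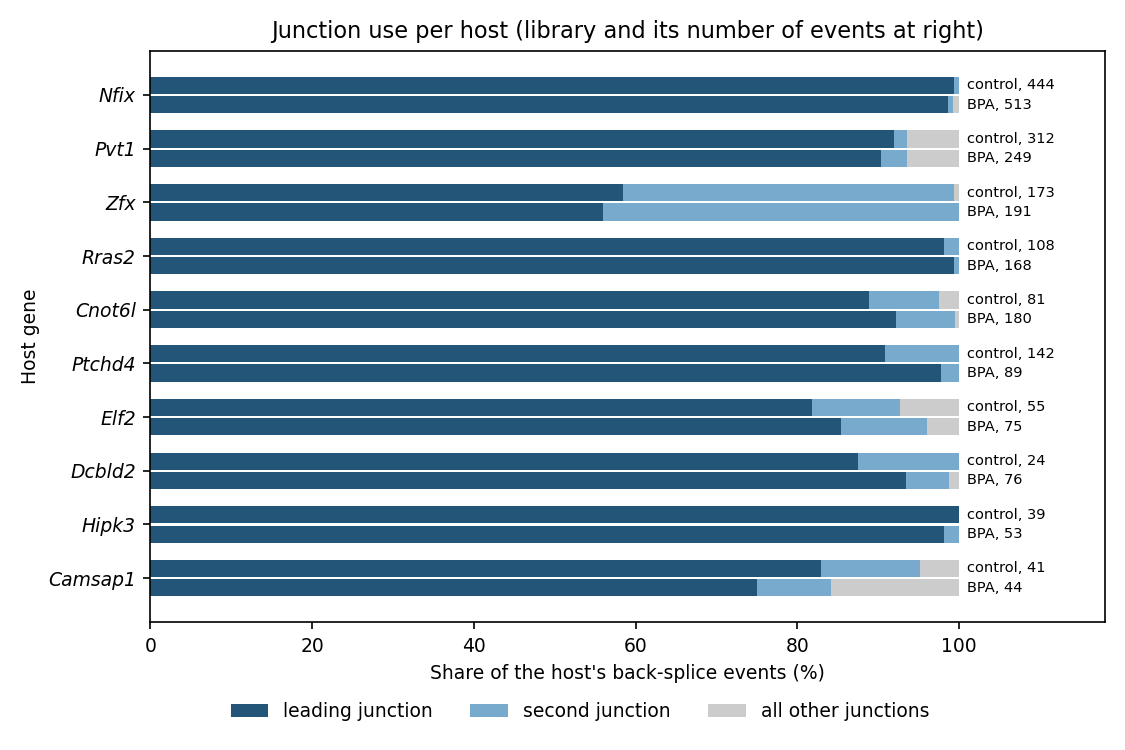
Share of each host's back-splice events (horizontal axis, percent) in its leading junction, its second junction and all others, with 1 bar per library and the library's events at the right. Zfx is divided between 2 junctions in both libraries, and the leading junction holds 75% or more in every other host.

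Junction use was similar in the 2 libraries for most hosts. The leading share was 58.4% in control and 56.0% with BPA in Zfx (Clopper-Pearson 95% intervals 50.7 to 65.8 and 48.7 to 63.2), and 92.0% and 90.4% in Pvt1 (88.4 to 94.7 and 86.0 to 93.7). In Ptchd4 it was 90.8% (84.9 to 95) and 97.8% (92.1 to 99.7). The junction that starts in the Ptchd4 intron had 13 control events against 2 in treated cells, at -2.71 on the log2 scale (-6.16 to -0.83), where the leading junction was at -0.84 (-1.25 to -0.44). Camsap1 was at 82.9% and 75%, with intervals that overlap (67.9 to 92.8 and 59.7 to 86.8). Its junction from exon 2 to exon 4 had 1 and 6 events. That junction and the minor ones of Nfix had fewer than 10 events and were named after their values were seen.

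Among the transcription factor genes, Nfix, a nuclear factor I gene on chromosome 8 (84699876 to 84800344), carried the most events of all hosts in both libraries. It had 444 events in control and 513 with BPA, 3.44% (3.13 to 3.77) and 2.92% (2.67 to 3.18) of each library. Zfx, a zinc finger factor gene of the X chromosome (94074631 to 94123702), had 173 and 191 events. Elf2, an ETS family factor gene on chromosome 3 (51252720 to 51340663), had 55 and 75. Nfix thus had more events than Zfx and Elf2 together in each library, and all 3 had more with BPA before scaling for the larger library.

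The long noncoding RNA gene Pvt1, a neighbour of Myc on chromosome 15 (62037986 to 62378096), had 312 events in control, 2.42% of the library (2.16 to 2.70), and 249 with BPA, 1.42% (1.25 to 1.60). It was second only to Nfix in both. Of its 9 junctions, exon 2 alone gave 287 and 225 events. The next 3 had 5 and 8, 8 and 5, and 6 and 5 events.

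Of the genes for membrane and signalling proteins, Rras2, a Ras-family GTPase gene on chromosome 7 (114046782 to 114117781), had 108 and 168 events. Ptchd4, which encodes a patched-domain membrane protein (chromosome 17, 42315947 to 42505077), had 142 and 89. Dcbld2, the gene of a neuropilin-like receptor (chromosome 16, 58408443 to 58469727), had 24 and 76. By events, Ptchd4 was the fourth of the 10 in control and the sixth with BPA, and Dcbld2 was the last in control and beside Elf2 with BPA.

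Cnot6l, a deadenylase of the CCR4-NOT complex that shortens mRNA tails (chromosome 5, 96070333 to 96164171), had 81 events in control and 180 with BPA. Hipk3, a homeodomain-interacting protein kinase gene (chromosome 2, 104426481 to 104494446), had 39 and 53. Camsap1, whose protein binds the minus ends of microtubules (chromosome 2, 25926838 to 25983282), had 41 and 44. Unscaled, the counting intervals of the 2 libraries did not overlap for Dcbld2, Cnot6l, Ptchd4 and Rras2. This makes no allowance for the difference in depth, and the share of all hosts without overlap was not counted. For Rras2, the interval of the log2 ratio scaled by total events included 0 (-0.17 to 0.55).

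**Figure D2:**
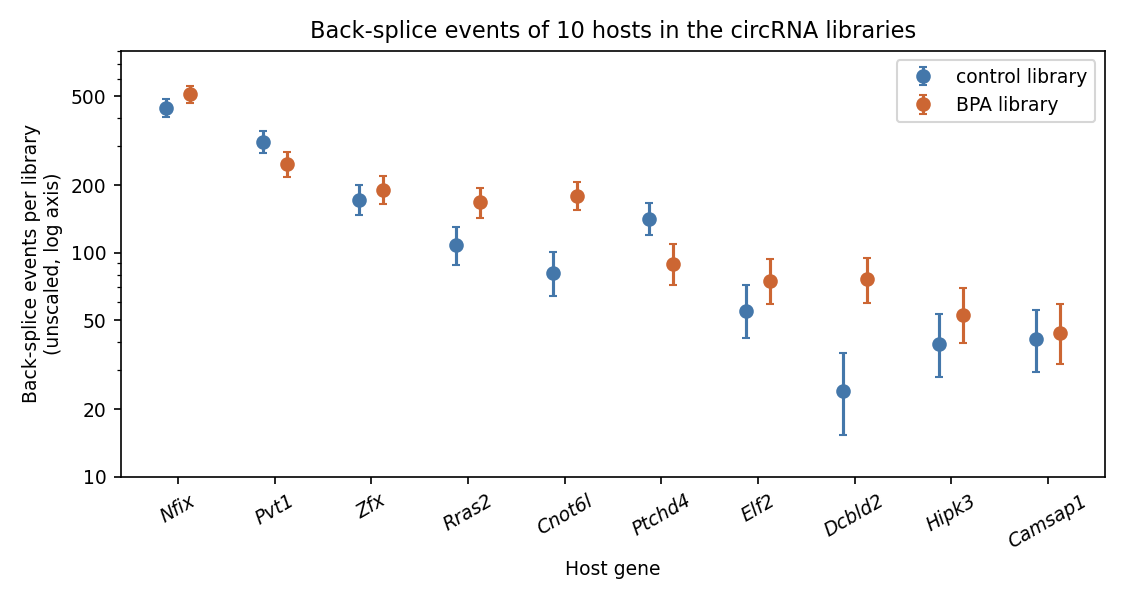
Back-splice events of each host (vertical log axis, unscaled) in the control and BPA circRNA libraries, with exact Poisson 95% intervals as bars. Nfix leads in both libraries with 444 and 513 events, and Dcbld2 has the lowest count in control, 24.

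Linear levels did not follow the circular ones. Linear level is given here as normalised reads per kilobase of exon, since reads grow with length and junction events do not. All reads of a gene in the mRNA library are counted as linear, so any reads from rings were not set apart. Linear level was highest in Nfix, at 2854 in control and 2067 with BPA, and in Rras2, at 2130 and 2272. Dcbld2 was at 590 and 655, Camsap1 at 467 and 469, Hipk3 at 383 and 395, Ptchd4 at 304 and 183, Zfx at 287 and 266, and Elf2 at 255 and 282. Cnot6l was at 152 and 115, and Pvt1, with 274 and 414 reads in all, at 40.7 and 56.9. Over all 687 hosts, Spearman's rho between events and linear reads per kilobase was 0.06 in control and 0.02 with BPA, across genes of 1 pair of libraries each, so genes are not independent replicates.

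**Figure D3:**
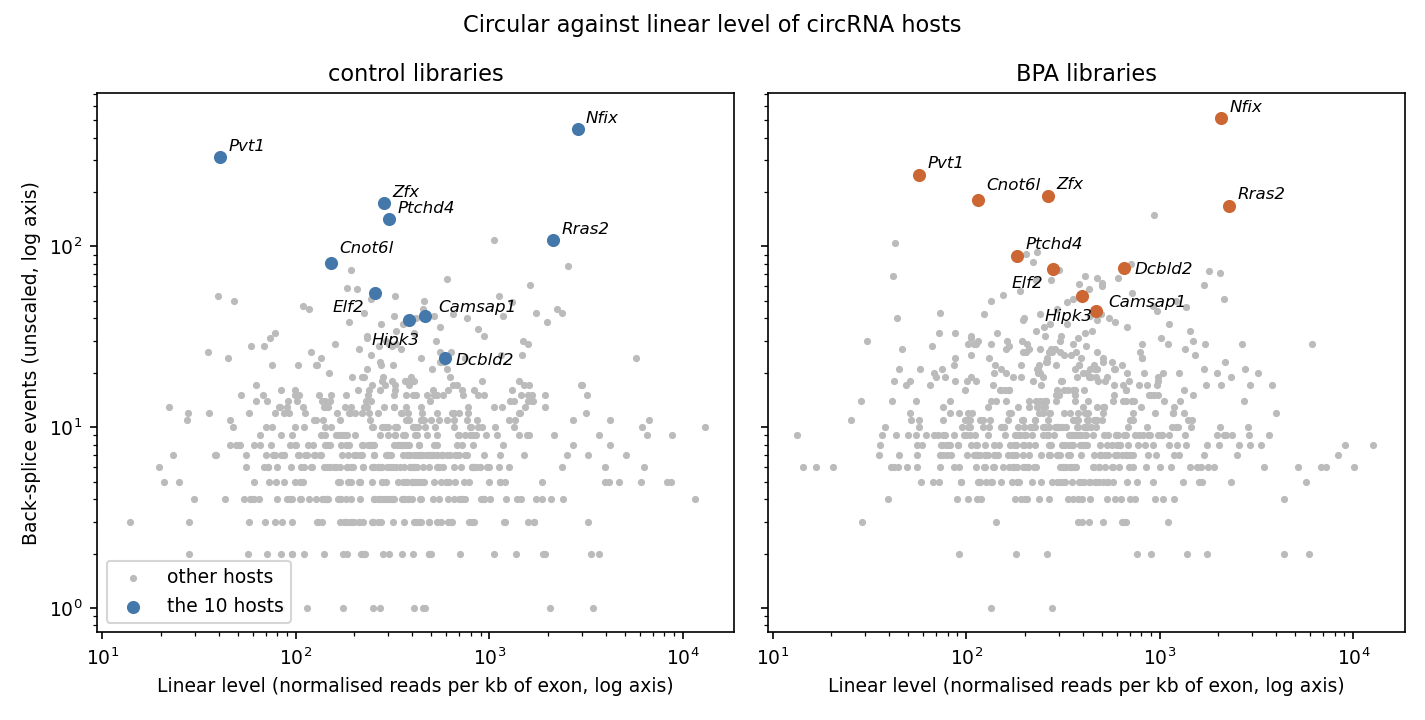
Back-splice events (vertical log axis, unscaled) against linear level (horizontal log axis, normalised reads per kilobase of exon) of 687 hosts in each pair of libraries, with hosts at 0 events left out of a panel. Nfix and Pvt1 have the most events of all at linear levels of 2854 and 40.7 in control.

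Circular against linear level ran from 4.47 to 843 in control. It is given as scaled events per 100 linear reads per kilobase. Since the 2 forms come from separate libraries, it ranks hosts and is no ratio of molecules. In control Pvt1 was at 843 (716 to 991), first of the 687 hosts. Zfx followed at 66.3 (56.8 to 77.5), Cnot6l at 58.6 (46.9 to 73.3) and Ptchd4 at 51.4 (43.3 to 61.2), and the intervals of these 3 overlap. Elf2 at 23.7 (18.2 to 31.0) and Nfix at 17.1 (15.6 to 18.8) overlap at their ends. Hipk3 at 11.2 (8.17 to 15.4) and Camsap1 at 9.65 (7.09 to 13.1) overlap, and so do Rras2 at 5.57 (4.61 to 6.74) and Dcbld2 at 4.47 (3 to 6.68). The median host was at 2.62, and the upper quartile began at 6.69, below 8 of the 10. Nfix, first by events, was at rank 56 of 687 on this scale, and Rras2 and Dcbld2 were at ranks 201 and 238. The position of Rras2 depended on the division by length, since with reads per gene it was at rank 72.

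With BPA, Pvt1 was at 398 (340 to 466), still first. Cnot6l was at 142 (122 to 166), Zfx at 65.4 (56.4 to 75.8), Ptchd4 at 44.2 (35.5 to 54.9), Elf2 at 24.2 (19.2 to 30.4) and Nfix at 22.6 (20.7 to 24.6). Hipk3 at 12.2 (9.31 to 16.0), Dcbld2 at 10.5 (8.41 to 13.2) and Camsap1 at 8.54 (6.34 to 11.5) overlap, and Rras2 at 6.73 (5.77 to 7.84) was lowest, with an interval that overlaps that of Camsap1. The median host was at 3.29. All 10 were above the median in both pairs of libraries. They were picked with their events known, and over the 687 hosts level rose with events (Spearman's rho 0.56 in control and 0.55 with BPA). Of the next hosts by events, Arhgap10, Foxn2, Gm21992 and Txndc11 were also above both medians. Crim1 was above the median in control (3.38) and below it with BPA (3.14). Only Cnot6l passed Zfx in the upper part of the order, and Dcbld2 moved from the last place to the eighth.

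In BPA against control, the circular RNA of Dcbld2 and Cnot6l was higher and that of Ptchd4 and Pvt1 lower, after scaling by the trimmed mean of M-values. Dcbld2 had a log2 ratio of 1.37 (95% interval 0.71 to 2.12), 2.58-fold, from 24 and 76 events. Cnot6l was at 0.87 (0.49 to 1.28). Ptchd4 was at -0.94 (-1.35 to -0.56) and Pvt1 at -0.60 (-0.85 to -0.35). Rras2 was at 0.36, with an interval (0.01 to 0.73) that nearly reaches 0. The intervals of the other 5 included 0, at 0.17 for Elf2, 0.16 for Hipk3, -0.07 for Nfix, -0.13 for Zfx and -0.17 for Camsap1. The scaling mattered for hosts near 0. With total events the median of all hosts was lower by 0.17, and with median-of-ratios size factors it was higher by 0.27. The median-of-ratios factors were 1 in both libraries, so that setting left the events unscaled for depth. The intervals of Dcbld2, Cnot6l, Ptchd4 and Pvt1 stayed on their side of 0 under all 3 settings. Nfix ran from -0.24 to 0.21, with intervals that leave out 0 at both ends, and the interval of Rras2 included 0 with total events. The share of higher among hosts at least 2-fold higher or lower was 67.2%, 53.6% with total events and 82.8% with median-of-ratios size factors.

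Dcbld2 was the 1 host of the 10 at least 2-fold higher, and none was 2-fold lower. These counts depended on the scaling, since Ptchd4 was at -1.12 with total events and Cnot6l at 1.15 with median-of-ratios size factors, both past 2-fold. Over all 688 hosts with at least 10 events, 18.2% were at least 2-fold higher and 8.87% lower. Over the 42 hosts with at least 80 events, the 10 included, 2.38% were 2-fold higher, which is Dcbld2 alone. The counting interval lay above 0 in 3 of the 10 and below 0 in 2, against 9.45% and 4.51% of all hosts and 21.4% and 11.9% of those with at least 80 events. The median of the 10 was 0.05, against 0.18 over all hosts. Of the 10 leading circRNAs, Dcbld2 was at 1.46 (0.76 to 2.26) and Cnot6l at 0.93 (0.52 to 1.35). That is 1 at least 2-fold higher and none lower, against 17.7% and 10.7% of 457 circRNAs with at least 10 events. Here too the leading Ptchd4 circRNA passed 2-fold with total events, at -1.01, and that of Cnot6l with median-of-ratios size factors, at 1.20. The interval lay above 0 in 3 and below 0 in 2, against 7.88% and 5.69%. In the authors' deposited table, Dcbld2 and Cnot6l had the smallest p-values among the 10 leading circRNAs, 0.00861 and 0.0219, and the adjusted p-value was 0.865 for both. The log2 fold change of the leading Nfix circRNA in the authors' deposited table was 0.20, where it was -0.08 after the scaling used here. How the authors' p-values were obtained from 1 library each is not stated in the labels or headers.

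The linear RNA of the 10 hosts differed less. None was 2-fold higher or lower, where 6.88% of 16870 genes were higher and 4.61% lower. This was usual for hosts, since only 2 of the 687 hosts were 2-fold higher in linear RNA and 5 lower. Ptchd4 had 1315 and 858 reads, a log2 ratio of -0.73 (-0.85 to -0.60), Nfix 20184 and 15796 reads and -0.47 (-0.50 to -0.44), and Cnot6l 1508 and 1234 reads and -0.40 (-0.51 to -0.29). Pvt1 had 274 and 414 reads and 0.48 (0.26 to 0.71). Dcbld2, with 4766 and 5723 reads, was at 0.15 (0.10 to 0.21), and Elf2, with 2344 and 2804, at 0.15 (0.07 to 0.23). Rras2, with 7284 and 8392, was at 0.09 (0.05 to 0.14), and Zfx, with 2139 and 2142, at -0.11 (-0.20 to -0.02). Hipk3 (2940 and 3278) and Camsap1 (3762 and 4078) were at 0.05 and 0.00, with intervals that include 0. With total reads as the scaling, the interval of Zfx included 0 and those of Hipk3 and Camsap1 lay above it. The interval lay above 0 in 4 and below 0 in 4, against 28.2% and 26.5% of all genes, and 199 and 292 of the 687 hosts. In the authors' deposited mRNA table the adjusted p-values of the 10 began at 0.961.

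**Figure D4:**
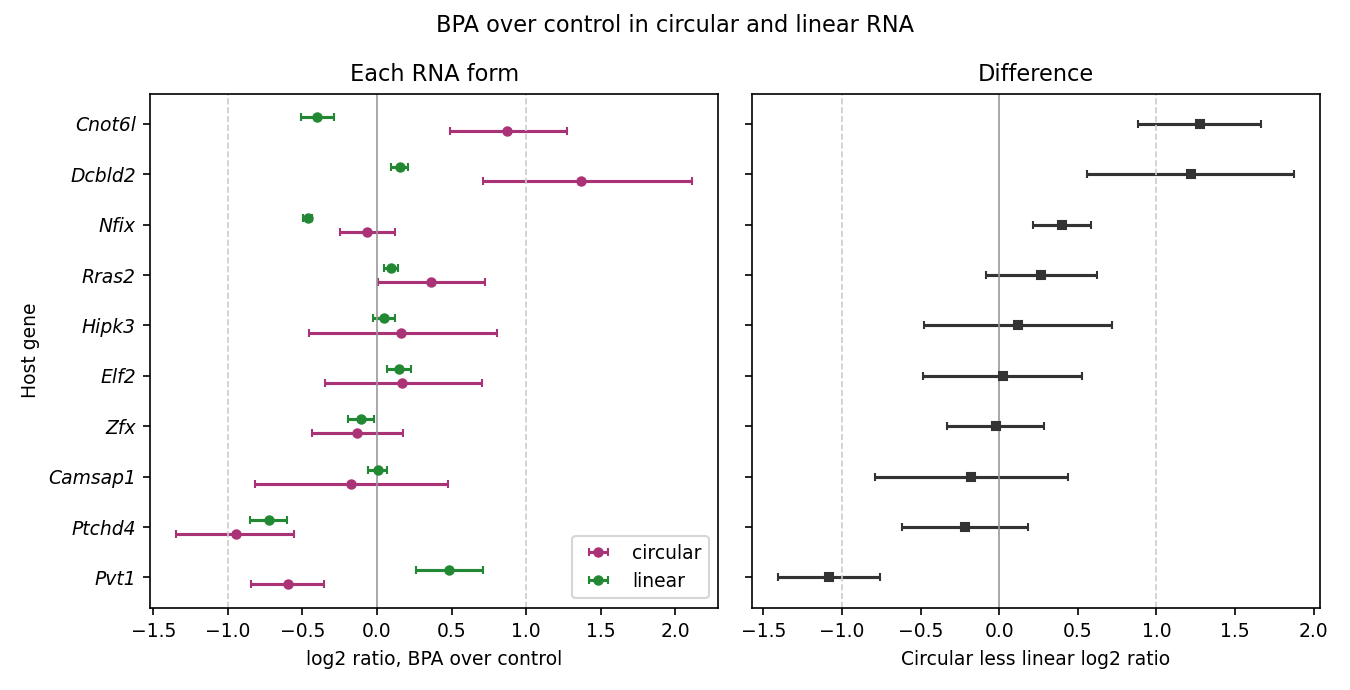
Left, log2 ratio of BPA over control of circular and linear RNA of each host, with 95% counting intervals, dashed lines at 2-fold. Right, the circular less the linear log2 ratio with its interval. Cnot6l and Dcbld2 lie at 1.27 and 1.22 on the right and Pvt1 at -1.08.

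The 2 forms parted by 2-fold or more in 3 hosts. In Cnot6l the circular ratio exceeded the linear one by 1.27 on the log2 scale (0.88 to 1.67), 2.42-fold, with more circular and less linear RNA in the BPA libraries. In Dcbld2 the difference was 1.22 (0.56 to 1.88), 2.32-fold, nearly all of it from the circular form. In Pvt1 it was -1.08 (-1.41 to -0.76), that is 2.12-fold lower, with less circular and more linear RNA. Nfix was at 0.40 (0.21 to 0.59), from -0.07 circular and -0.47 linear. With library totals for both scalings, Nfix was at 0.15 with an interval that includes 0, and Dcbld2 at 0.97, which is short of 2-fold. With size factors from the median of ratios for events, Pvt1 was at -0.81, also short of 2-fold. The intervals of Cnot6l, Dcbld2 and Pvt1 left out 0 under each of these settings.

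In Ptchd4 both forms were lower. Its difference was -0.22 (-0.62 to 0.18), from -0.94 circular and -0.73 linear, and with library totals it was -0.47 (-0.87 to -0.07). Rras2 was at 0.27 (-0.08 to 0.62), and at 0.54 (0.19 to 0.89) with median-of-ratios size factors. Hipk3 was at 0.12 (-0.48 to 0.72), Elf2 at 0.02 (-0.48 to 0.53), Zfx at -0.02 (-0.33 to 0.29) and Camsap1 at -0.18 (-0.79 to 0.44). These intervals are wide in Camsap1 and Hipk3, so they do not show that the forms moved alike. Of the 10, 2 were at least 2-fold higher and 1 lower in circular against linear ratio, against 21.0% and 8.59% of the 687 hosts. The interval lay above 0 in 3 and below 0 in 1, against 11.9% and 4.37%. Among hosts with at least 80 events, the 10 included, these interval shares were 23.8% and 7.14%.

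Other hosts had like levels. Over 273 hosts with at least 20 events and 100 reads outside the 10, those nearest to the median pair of levels of the 10 (20.1 in control and 23.4 with BPA, distance on the log2 scale) were Insr, Cdk8, Pan3, Papd7 and Phip, at distances of 0.16 to 0.23. Insr was at 19.1 and 25.7 and Cdk8 at 18.0 and 22.4. Of 32 hosts well known from the literature, 28 had an event and 12 passed both filters. In circular RNA 3 of the 12 were at least 2-fold higher (Cdyl and Picalm with 2 and 12 events each, Zfp609 with 3 and 8) and none lower, and their median was 0.48. Their median level in control was 3.56 scaled events per 100 linear reads per kilobase. Crim1, with 78 and 71 events, was at 3.38 on this scale, below each of the 10, from 14624 and 12824 linear reads. It was the lowest of the hosts next in abundance. In control, Arhgap10 was at 11.3, Txndc11 at 35.2, Foxn2 at 42.4 and Gm21992 at 147, levels within the range of the 10.

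Of 12 genes whose proteins favour or restrain back-splicing, 10 had at least 10 linear reads in both libraries together, and none was 2-fold higher or lower. Their median log2 ratio was -0.22. Rbm20 was the highest at 0.91 (-1.02 to 3.69), on 3 and 7 reads. Adar, the editing enzyme that loosens paired introns, was at 0.80 (0.71 to 0.89) from 1549 and 2922 reads. Mbnl1 was the lowest at -0.47 (-0.55 to -0.38), and Qk, the gene of Quaking, had 6444 and 6849 reads and was at -0.02 (-0.07 to 0.03). Their part in the circular levels was not tested.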

How the data were processed

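The deposited circRNA and mRNA values were log2 values, 1 column per library, per the file headers. Both kinds of library list STAR, and mRNA also StringTie, with the builds GRCm38 and mm10, per the submitters' processing notes. The circRNA caller, annotation, filters and use of strand in counting: not given in the sources used here. Values of the deposited circRNA table were raised as powers of 2, reduced by 1 and divided by 2, which gave whole numbers within 0.001 in every row, taken as back-splice events. Why an event counts 2 is not stated in the labels or headers. In the deposited mRNA table the same quantity before division came in even steps of 1.04 in control and 0.962 with BPA, taken as 1 read each, and values kept the authors' scaling. The p-values, named as such per the file headers, are quoted as the authors' only.

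The design had expected counts, and its quantities were computed from the recovered events and reads. Events were scaled by the trimmed mean of M-values (factors 1.06 and 0.942), with 0.5 events added, and mRNA values used a pseudocount of 1, which understates changes of low genes. Intervals of ratios are exact conditional binomial (Clopper-Pearson, 95%, SciPy 1.17.1). Those of circular against linear values use a normal approximation on log counts. Exon numbers come from GENCODE M21 (GRCm38), in the transcript with both ring ends that ranked first by APPRIS level, support level and exon number, and kilobases of exon are the union of a gene's exons. Sequences were read from GRCm38.p6 with pysam 0.24.0, and flanks compared with blastn 2.17.0. The interval and calling code was tested on simulated data. Groups came from the sample titles. The members and lists were chosen with earlier results of these data known. By rule, named circRNAs had at least 10 events (the exceptions are marked in the text), and hosts named outside the 10 were the 5 next by events, the 5 nearest in level and members of fixed lists. Alternatives were other scalings, filters, added counts, length division and sets of rows. Exons of Pvt1 overlap same-strand genes with at most 2 reads in a library, and those of the other hosts overlap Mir1902 (Hipk3) or genes of the opposite strand.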

Additional observations from a re-analysis of the deposited data

Results flagged for a closer look

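In 2 hosts the circular and the linear RNA differed between BPA and control in opposite directions, with counting intervals that both left out 0. Over all 687 hosts, the circular interval lay above 0 in 64 and below 0 in 31. The linear interval lay above 0 in 199 and below 0 in 292, so it left out 0 in most hosts. How many of the 687 met both conditions in opposite directions was not counted. Pvt1 was lower in circular RNA (312 and 249 events) and higher in linear RNA (274 and 414 reads), a circular less linear log2 ratio of -1.08. Cnot6l was higher in circular RNA (81 and 180 events) and lower in linear RNA (1508 and 1234 reads), a circular less linear log2 ratio of 1.27. With 1 library per group and RNA form, the difference was not tested.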

How the results depend on the processing

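No paired analysis was possible because each group held 1 library and the labels carry no replicate numbers, and no library could be left out. Scaling moved all circular ratios together. The median host was at a log2 ratio of 0.18 with the trimmed mean of M-values. It was lower by 0.17 with total events and higher by 0.27 with median-of-ratios size factors. Those factors were 1 in both libraries, so events were then left unscaled. The share of higher among 2-fold hosts was 67.2%, 53.6% and 82.8%.
With median-of-ratios size factors, 125 circRNAs were at least 2-fold higher and 32 lower (81 and 49 in the report), and 193 and 40 hosts (125 and 61), and 35 hosts were lower in circular against linear ratio (59). With at least 20 events, 22 and 13 circRNAs and 36 and 14 hosts passed, and without a filter 4681 and 3067 circRNAs and 1552 and 1044 hosts, where fewer or more features were tested. With 2 events added, 53 circRNAs were higher. With the leading row of each host, 60 hosts were higher in circular RNA and 69 in circular against linear ratio (144). With library totals 94 and 97 hosts were higher and lower in that ratio. At 50 reads 440 and 277 mRNA genes passed, and without a filter 2978 and 2381 (1160 and 778). Of the 37 junctions of the 10 hosts, 24 were seen in both libraries. Filters could not alter the ratios of the 10 hosts, and added Pvt1 rows could alter those of Pvt1 only. Median-of-ratios factors for reads gave the reported values. With these counted in, 219 of 230 ratios of the 10 hosts under alternatives stayed within the counting interval of the reported value and 11 did not. Where that interval left out 0, no ratio changed sign, whereas Nfix in circular RNA, whose reported interval included 0, was at -0.24 with total events and 0.21 with median-of-ratios size factors, both with intervals that left out 0. Of 60 ranks of level, 4 crossed the upper quartile, and of 30 junction counts 8 differed by over 1.5 times. Adding the rows that name Pvt1 with Gm27957, and median-of-ratios factors for reads, were chosen after seeing the data. Apart from changes that follow from fewer or more features, the cause was not tested.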

Other observations

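The circRNA table also held 6 rows that name Pvt1 together with Gm27957, a gene that shares 82 exon bases with it on the same strand, with 18 events in control and 22 with BPA. They were left out of the values of Pvt1, and with them Pvt1 had 15 junctions and a circular less linear log2 ratio of -1.04. Gm21992, the host outside the 10 with a level nearest to that of Pvt1 among the 5 next by events, had 1 junction with 53 and 105 events from 220 and 258 linear reads, and stood at 147 and 222 scaled events per 100 linear reads per kilobase.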
